A study of Mus musculus with 24 samples.

Results

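The 45 genes described here encode the machinery of mitosis and of the G2/M transition, and were taken by symbol from a fixed list. That list was chosen with earlier results of these data known. All 45 were found among the 48709 genes of the count table, 44 under their listed symbol and Sgol1 under its current symbol Sgo1. Each is annotated as protein coding. They were divided by role into 9 classes: Mki67 and Top2a, CDK1 with its cyclins and phosphatase, mitotic kinases with the chromosomal passenger complex, partners of the anaphase promoting complex, kinesin motors, centromere and kinetochore proteins, spindle and midzone proteins, condensin, and cytokinesis proteins.

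As background, a cell enters mitosis when the kinase CDK1, bound to a cyclin, is freed from inhibition. Kinetochores then attach chromosomes to the spindle, and the anaphase promoting complex destroys cyclin B and securin once all are attached. Transcripts of these genes accumulate late in the cell cycle and are scarce in resting cells, so in a tissue their level follows the dividing cells. In the neonatal cortex these are chiefly progenitors and glial precursors, whereas neonatal blood holds immature cells of the red lineage. In whole tissue, fewer dividing cells and less RNA per dividing cell cannot be told apart.

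The 24 ribosomal RNA-depleted libraries came from the dissected cerebral cortex (12) and the whole blood (12) of mouse neonates, 3 for each sex and exposure in each tissue. Pregnant dams breathed re-aerosolised nanosized particulate matter (nPM) or, for control, filtered air, for 5 hours a day on 3 days a week from gestational day 2 until birth. Labels and methods differ on 3 points: the strain is C57BL/6J in the labels and C57BL/6NJ in the methods, the age is 3 to 5 days in one label and day 5 in another and in the methods, and the dose of 300 is in mg/m3 in the labels and μg/m3 in the methods. Each library came from 1 pup, and the dam rather than the pup breathed the particles. The 3 pups of a sex and exposure were drawn from different litters. Whether a male and a female of the same exposure shared a litter is not stated. Blood and cortex were collected from the same pups, but no label ties a blood library to its cortex library. Exposure was therefore tested within each tissue, and the 1 comparison across tissues, in control libraries, was fitted without pairing.

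Gene counts summed to 22301409 to 33804371 per cortex library and to 13595647 to 21895536 per blood library, where globin genes took 66.2 to 76.8% of the counts outside V2. All 45 members had at least 1 count in every library. The neuron markers fixed for the check, such as Snap25 and Stmn2, summed to 7320 to 8450 CPM, counts scaled to the total of the library, in cortex and to at most 38 CPM in blood other than V2. V2, a control female blood library, stood apart and was left out of the blood tests, and its values are given at the end. Among cortex libraries V14, a control male, had 26.5 CPM of Ttr, a choroid plexus transcript at 225 to 487 CPM in the others, and it carried the lowest value of 22 of the 45 members.

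Promoter sequences were taken from RefSeq (build GRCm38.p6), which held 40 promoters for 38 of the members. None was listed for Ccna2, Cdc25c, Aurkb, Pbk, Kif20a, Tpx2 and Smc4. The search covered 250 bases before and 50 bases after each start, on both strands, for TTTGAA, the core of the cell cycle homology region, and for CCAAT, the box bound by NF-Y. TTTGAA was found in 30 of the 40 promoters (75%), against 17.9% of all 32851 promoters. CCAAT was found in 32 (80%), against 37.4%, and both in 26 (65%), against 6.95%. Matches of TTTGAA lay at a median of base 3 after the start and those of CCAAT at 68 bases before it, and no match of one overlapped one of the other. A match of letters is not a site shown to be bound.

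The 120 bases before the start of 7 members are given here. Cdk1, Top2a, Nuf2 and Aurka were among the 11 members higher with nPM in cortex at an unadjusted edgeR p under 0.05. Not all of the 11 are shown, and Pbk and Smc4, with the smallest p there, had no listed promoter. Cenpl had the smallest p in blood, where it was lower with nPM. Ube2c and Nusap1 were the most abundant members in blood. Capitals mark TTTGAA and CCAAT or their reverse complements, each sequence is written 5′ to 3′ on the strand of its gene, and the stretches lie at chr10:69352913-69353032 on the minus strand (Cdk1), chr11:99024190-99024309 minus (Top2a), chr1:169531465-169531584 minus (Nuf2), chr2:172370571-172370690 minus (Aurka), chr1:161070647-161070766 plus (Cenpl), chr2:164769809-164769928 plus (Ube2c) and chr2:119618178-119618297 plus (Nusap1).
Cdk1: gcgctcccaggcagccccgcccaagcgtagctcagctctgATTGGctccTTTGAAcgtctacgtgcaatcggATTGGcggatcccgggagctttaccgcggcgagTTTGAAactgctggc
Top2a: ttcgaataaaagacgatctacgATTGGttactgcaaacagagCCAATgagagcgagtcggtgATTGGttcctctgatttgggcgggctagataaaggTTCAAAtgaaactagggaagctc
Nuf2: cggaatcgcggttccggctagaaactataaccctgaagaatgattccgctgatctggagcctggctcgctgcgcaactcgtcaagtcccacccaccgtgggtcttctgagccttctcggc
Aurka: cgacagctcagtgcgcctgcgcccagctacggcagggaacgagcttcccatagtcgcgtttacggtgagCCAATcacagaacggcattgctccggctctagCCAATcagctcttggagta
Cenpl: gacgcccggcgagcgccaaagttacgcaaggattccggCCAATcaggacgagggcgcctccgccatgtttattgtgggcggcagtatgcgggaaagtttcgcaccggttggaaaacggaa
Ube2c: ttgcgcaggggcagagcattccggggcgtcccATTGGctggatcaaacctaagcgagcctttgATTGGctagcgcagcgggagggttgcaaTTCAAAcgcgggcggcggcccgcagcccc
Nusap1: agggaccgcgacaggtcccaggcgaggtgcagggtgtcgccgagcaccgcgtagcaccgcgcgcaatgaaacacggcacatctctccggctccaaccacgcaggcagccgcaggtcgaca
Cdk1, Top2a and Ube2c held both motifs in these stretches, and Aurka and Cenpl held CCAAT here and TTTGAA elsewhere in the searched window. Neither motif was found in the searched promoters of Nuf2 and Nusap1.

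Levels in unexposed animals were compared between genes as RPKM, the count of a gene divided by the length of its exons and by the total of the library. In control cortex the condensin subunits Smc2 (4.71 ± 0.51, SD, n = 6) and Smc4 (4.71 ± 0.26), which compact mitotic chromosomes, were the most abundant, and their ranges overlapped. Top2a (3.97 ± 0.66), the topoisomerase that untangles replicated DNA, and Mki67 (3.44 ± 0.67), which coats mitotic chromosomes, followed, and their ranges overlapped. Cyclin A2 (Ccna2) was at 3.03 ± 0.39, the kinase Pbk at 2.89 ± 0.56 and the cytokinesis regulator Racgap1 at 2.85 ± 0.29, and their ranges overlapped as well. The lowest were the protease Espl1 (separase, 0.501 ± 0.137), the checkpoint kinase Ttk (0.505 ± 0.107) and the cohesin protector Sgol1 (0.526 ± 0.161).

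In control blood the order was different. Ube2c, the ubiquitin-conjugating enzyme of the anaphase promoting complex, measured 50.8, 59.6, 70.7, 73.0 and 81.6 RPKM in the 5 control libraries. Nusap1, a protein that bundles spindle microtubules, measured 41.2, 50.9, 56.7, 58.2 and 67.0 RPKM. In control cortex the same genes lay between 0.955 and 1.43 RPKM (Ube2c) and between 1.17 and 1.84 RPKM (Nusap1), so the tissues did not overlap. Mki67 (11.2 ± 1.79, n = 5) and the checkpoint kinase Bub1b (8.80 ± 1.72) were next in blood. Ube2c, Nusap1, Mki67 and Bub1b together made up 68.8 to 78.6% of the members' summed RPKM in a blood library and 8.73 to 11.3% in a cortex library.

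At the other end, Nek2 (0.163 ± 0.069 RPKM), a kinase that separates centrosomes, Cenpl (0.164 ± 0.071), Ncaph (0.211 ± 0.095), Pbk (0.226 ± 0.172) and Nuf2 (0.227 ± 0.045) were lowest in control blood, and their ranges overlapped. By RPKM the control libraries of the tissues did not overlap for 25 members. Of these, 18 were higher in cortex, among them Cdk1, Ccnb1, Aurka, Plk1, Pbk and Smc2. The other 7 were higher in blood, namely Ube2c, Nusap1, Bub1b, Kif23, Espl1, Mki67 and Ccna2. RPKM is scaled by library totals, and the share of all genes without overlap was not counted. With library totals 89.8% of all 10275 genes tested were called higher in cortex (edgeR adjusted p under 0.05) and 6.02% lower. The 18 are therefore not read as a result about these members. Ube2c is overlapped on the other strand by Tnnc2 and Nusap1 by Oip5. Strand use in the counting was not stated, so reads of such pairs, which 17 members have, cannot be told apart.

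**Figure D1:**
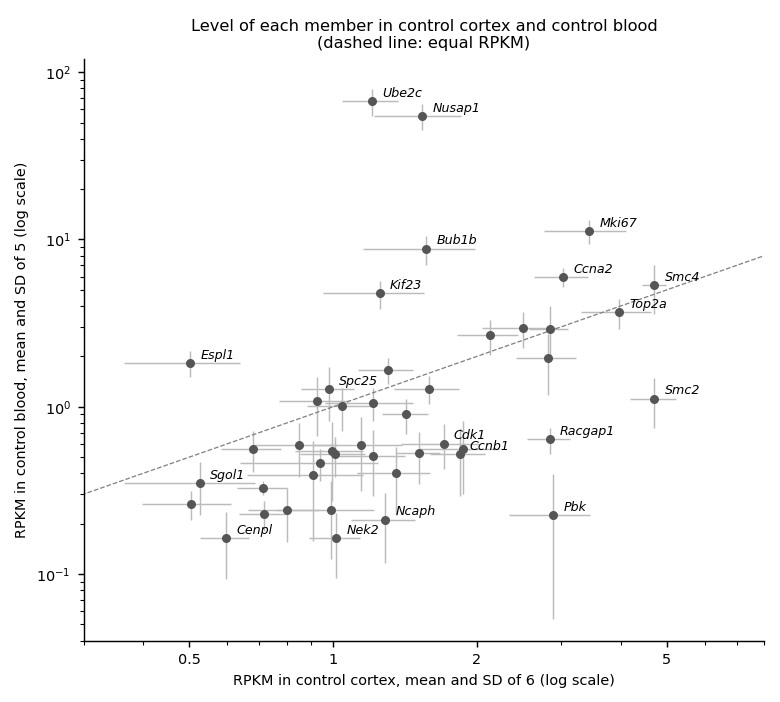
Each point is 1 member, with its RPKM in control cortex (x, mean and SD of 6 libraries) and in control blood (y, mean and SD of 5 libraries, without V2), on log axes. Ube2c and Nusap1 sit far above the line of equal RPKM, at 67.1 and 54.8 RPKM in blood, and Pbk, Ncaph and Nek2 sit far below it.

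The test of control cortex against control blood depended on how the libraries were scaled. With TMM factors, which set the bulk of genes equal, the median member was 3.49 log2 units lower in cortex, against 0.24 units higher for the median of all 10275 genes tested, and 44 of 45 members passed an adjusted p of 0.05 as lower (edgeR's quasi-likelihood test), where 39.5% of all genes were called lower and 46.8% higher. The exception was Pbk (-0.50 ± 0.34, SE). With library totals in place of TMM, 36 members were higher and 9 lower in cortex, with a median of 0.99 for the members and 4.69 for all genes. The direction of most single members therefore turned with the scaling. Ube2c (-9.95 ± 0.20 by TMM, -5.45 ± 0.16 by totals), Nusap1 (-9.35 ± 0.24 and -4.83 ± 0.18) and Bub1b (-6.63 ± 0.19 and -2.15 ± 0.18) were lower in cortex under both, and so were Kif23, Espl1, Mki67 and Ccna2. At the other end of the order stood Pbk (-0.50 and 3.93), Nek2 (-1.51 and 2.96) and Ncaph (-1.55 and 2.91). The RNA integrity number was 7.5 to 9.3 in blood and 9.4 to 9.9 in cortex, so it could not be a covariate here. Lane 1 held only blood libraries, lane 2 only cortex libraries and lane 3 both. RNA quality, and in large part lane, therefore cannot be told apart from tissue.

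With nPM, most members were slightly higher in cortex. Of the 45, 42 had a higher fitted level in the 6 nPM than in the 6 control libraries, at a median log2 change of 0.15 (11.1%), where the median of all 20857 genes tested was -0.0024 and 48.9% were higher. At an unadjusted p of 0.05, 11 members were higher, where 2.73% of all genes passed as higher, and 0 were lower, where 2.94% of all genes passed as lower. The 11 were Pbk, Smc4, Nuf2, Aurka, Cdk1, Nusap1, Birc5, Top2a, Kif20b, Cdc25c and Kif20a, and this unadjusted 0.05 is the threshold meant where a member is said to pass. Pbk and Smc4 passed the unadjusted p of 0.005 used by the study, which 0.614% of all genes passed. No member had an adjusted p under 0.05 by edgeR, limma voom or DESeq2, and each tool gave 11 members at an unadjusted p under 0.05. For no member did the 6 nPM libraries lie wholly apart from the 6 control libraries, as they did for 0.197% of all genes. Levels below are CPM scaled by TMM within the tissue.

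The count of 11 rested on single libraries: it was 5 without V14, 6 without V15, 7 without V12 and 19 without V16. Without V14 40 members were still higher, at a median of 0.11. The mean log2 level over the members was 2.52 to 2.92 in control libraries (2.70 ± 0.14, SD, n = 6) and 2.78 to 2.96 in nPM libraries (2.85 ± 0.069, n = 6). V11 and V15, both nPM, held the highest value of 12 and 11 members and V16, a control, that of 7, while V14, V24 and V12, all controls, held the lowest value of 22, 10 and 8. In lane 2, with 4 libraries a group, 41 members were higher in nPM (median 0.17), and in lane 3, with 2 a group, 31 were (median 0.084).

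**Figure D2:**
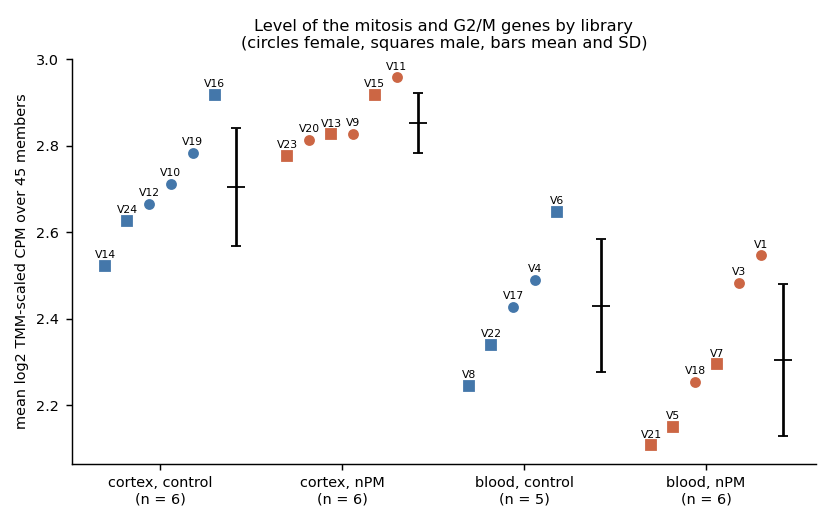
Mean log2 TMM-scaled CPM over the 45 members (y) in each library of each group, circles for females and squares for males, with the group's mean and SD as bars; cortex and blood were scaled separately and their levels are not comparable. The control cortex libraries spread from 2.52 in V14 to 2.92 in V16, and the nPM cortex libraries lie between 2.78 and 2.96.

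Mitotic kinases and the passenger complex had the largest median change of the 9 classes in cortex, 0.265 log2 units, with 9 of 9 members higher and 3 of them at an unadjusted p under 0.05. Pbk, a kinase active in mitotic and progenitor cells, ranged from 4.51 to 7.20 CPM in controls (median 4.88) and from 5.92 to 7.88 CPM with nPM (median 6.91). All nPM libraries lay above 5 of the 6 controls, and the exception was V16. Its log2 change was 0.42 ± 0.11 (SE, edgeR p = 0.00209, adjusted p = 0.635), and an exact two-sided permutation test of the libraries gave p = 0.0195, where 0.00216 is the smallest that 6 against 6 can give. The unadjusted p stayed between 0.000216 and 0.00846 when each library was left out in turn, and passed 0.005 in 6 of those 12 fits, not without V9, V11, V12, V13, V14 or V19. Aurka, the kinase of the spindle poles, ranged from 2.52 to 3.87 CPM in controls (median 3.02) and from 3.35 to 4.78 CPM with nPM (median 3.75). The groups overlapped, and the change was 0.38 ± 0.14 (edgeR adjusted p = 0.844). Birc5 (survivin), the passenger complex subunit that brings Aurora B to the centromere, was at 0.34 ± 0.13 (edgeR adjusted p = 0.858), and Aurora B itself (Aurkb) at 0.28 ± 0.17 (edgeR adjusted p = 0.884). Bub1, Bub1b and Ttk, kinases of the spindle checkpoint, were at 0.24 ± 0.17, 0.14 ± 0.14 and 0.27 ± 0.17, and Plk1, which acts from mitotic entry to cytokinesis, at 0.17 ± 0.14. These did not pass the threshold, and neither did Nek2.

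All 5 genes of CDK1, its cyclins and phosphatase were higher, with a median of 0.22. Cdk1, the kinase that drives mitotic entry, ranged from 4.46 to 6.68 CPM in controls (median 6.36) and from 5.63 to 9.77 CPM with nPM (median 7.41). Of the 6 nPM libraries 5 lay above every control, and V23 lay among the controls. The change was 0.35 ± 0.14 (edgeR adjusted p = 0.848). Cdc25c, the phosphatase that activates CDK1, was at 0.34 ± 0.15 (edgeR adjusted p = 0.862). Cyclins did not pass the threshold: Ccnb1 ranged from 6.56 to 9.02 CPM in controls and from 7.18 to 11.2 CPM with nPM (0.16 ± 0.12, edgeR adjusted p = 0.886), Ccnb2 was at 0.22 ± 0.15 and Ccna2, which is made already in S phase, at 0.065 ± 0.085.

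Top2a ranged from 26.8 CPM in V14 to 43.5 CPM in controls (median 36.1) and from 38.5 to 44.4 CPM with nPM (median 41.3), and every nPM library lay above 4 of the 6 controls. Its change was 0.21 ± 0.086 (edgeR adjusted p = 0.862), and 0.138 without V14. Mki67, the antigen most used to count dividing cells, ranged from 24.1 to 41.8 CPM in controls (median 34.6) and from 34.0 to 40.2 CPM with nPM (median 37.5), and the nPM range lay inside that of the controls (0.11 ± 0.099, edgeR adjusted p = 0.899). In condensin, Smc4 ranged from 23.2 to 26.8 CPM in controls (median 24.4) and from 25.7 to 29.5 CPM with nPM (median 27.8). Only V16 among the controls reached into the nPM range. The log2 change was 0.17 ± 0.051 (edgeR p = 0.00392, adjusted p = 0.779), and the exact permutation test gave p = 0.00649. Smc4 no longer passed 0.005 without V11, V12, V14, V15, V19, V20, V23 or V24, with p up to 0.0166. Its partner Smc2 (0.11 ± 0.071) and the regulatory subunits Ncapg (0.081 ± 0.11) and Ncaph (0.16 ± 0.13) did not pass the threshold.

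At the kinetochore, Nuf2, a subunit of the NDC80 complex that holds microtubules, ranged from 3.70 to 5.39 CPM in controls (median 4.56) and from 4.90 to 5.62 CPM with nPM (median 5.36). One control, V16, lay in the nPM range, and the change was 0.25 ± 0.087 (edgeR adjusted p = 0.844). Its partners in the same complex, Ndc80 (0.10 ± 0.18) and Spc25 (0.16 ± 0.13), did not pass. Nor did the motor Cenpe (0.12 ± 0.069), Cenpf (0.095 ± 0.084), the centromeric histone Cenpa (0.036 ± 0.10), Cenpq (0.10 ± 0.089) and Cenpl (-0.067 ± 0.13).

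Among the kinesins, 6 of 6 were higher, with a median of 0.17. Kif20b (0.28 ± 0.11, edgeR adjusted p = 0.862) and Kif20a (0.26 ± 0.12, edgeR adjusted p = 0.862), motors of the midzone and of cytokinesis, passed the unadjusted threshold. Kif11, which pushes spindle poles apart, was at 0.080 ± 0.083 and Kif23, the centralspindlin motor, at 0.058 ± 0.15. Of the spindle proteins Nusap1 ranged from 4.88 to 7.46 CPM in controls (median 6.20) and from 6.47 to 9.51 CPM with nPM (median 7.83), a change of 0.34 ± 0.13 (edgeR adjusted p = 0.854). Tpx2, which activates Aurora A (0.19 ± 0.10), and Prc1, which crosslinks the midzone (0.13 ± 0.086), did not pass, and Hmmr was at -0.043 ± 0.093.

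Partners of the anaphase promoting complex and cohesin release showed the smallest median, 0.041, with 0 of 4 past the threshold. Cdc20, the activator that targets cyclin B, was at 0.26 ± 0.13 (edgeR adjusted p = 0.862), Ube2c at 0.043 ± 0.12, Espl1 at 0.039 ± 0.18 and Sgol1 at -0.0068 ± 0.17. The cytokinesis genes Anln (0.11 ± 0.10), Ect2 (0.12 ± 0.12) and Racgap1 (0.095 ± 0.072) had a median of 0.11 and none passed.

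**Figure D3:**
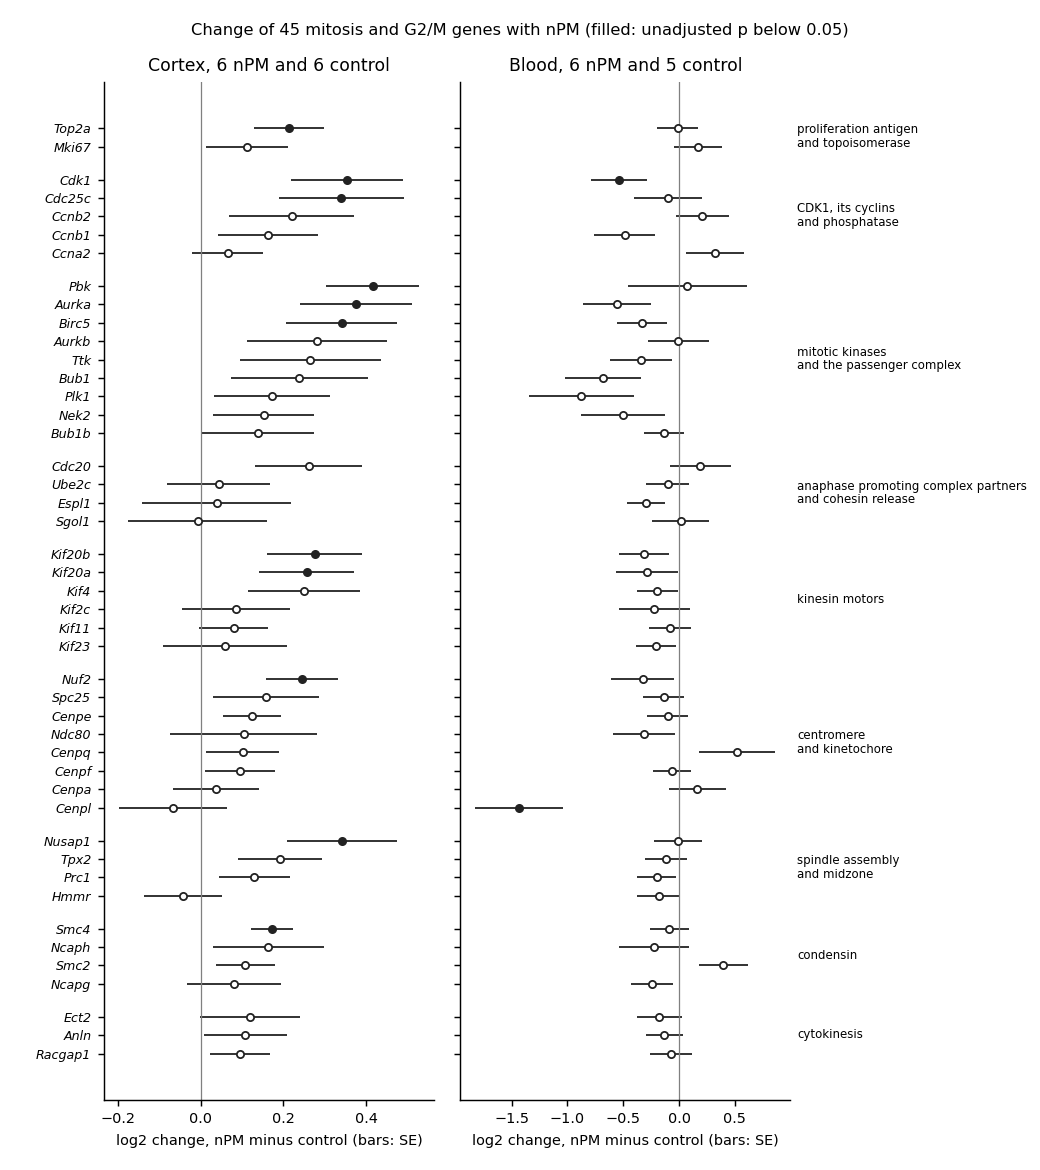
Log2 change (nPM minus control, x, with SE bars) of the 45 members by class in cortex (left) and blood (right), filled where the unadjusted edgeR p was below 0.05; the panels have different x scales. In cortex 42 of 45 points lie right of 0 and 11 are filled, and in blood 36 of 45 lie left of 0 and 2 are filled.

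In the sex-stratified fits, 38 members were higher in female cortex (median 0.14) and 41 in male cortex (median 0.20). At an unadjusted p of 0.05, 5 members passed in females, where 15.4% of all genes did, and 3 in males, where 4.51% did, so the count in females was below, and that in males near, what the share of all genes gives for 45 genes. In females Pbk measured 4.51, 4.70 and 4.92 CPM in controls and 5.97, 7.40 and 7.88 CPM with nPM (0.55 ± 0.14, edgeR adjusted p = 0.0779), and the adjusted p passed 0.05 in 2 alternatives, at 0.00686 with genes kept on a count in any library and just under 0.05 without RIN, the RNA integrity number, as a covariate. Cdc20 measured 2.88, 3.05 and 3.21 CPM in controls and 3.89, 4.38 and 4.54 CPM with nPM (0.50 ± 0.16, edgeR adjusted p = 0.156). Neither gene's groups overlapped, but 3 against 3 cannot give an exact permutation p below 0.1. Of the 45 members 9 had no overlap in female cortex and 3 in male cortex. The share over all genes was not counted, so neither count is read as a result about the members. Smc4 (0.19 ± 0.073), Top2a (0.13 ± 0.061) and Kif4, a chromosome-bound kinesin (0.33 ± 0.15), were the other members that passed in females. In males Kif20a (0.45 ± 0.20, edgeR adjusted p = 0.962), Top2a (0.38 ± 0.17) and Kif20b (0.49 ± 0.22) passed.

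These counts moved with single libraries. In females it was 2 without V11 or V12. In males it was 0 without V13, V14 or V15, 1 without V24, 10 without V16 and 17 without V23. The exposure effect was not shown to differ between the sexes in cortex: 0 members had an interaction p under 0.05 by edgeR, limma voom or DESeq2, against 9.68% of all genes by edgeR. That count became 1 without V12 or V14 and 3 without V16. The median in males, 0.20, was 0.108 without V14 and 0.471 without V23. The smallest p were those of Bub1 (0.57 ± 0.33, males minus females, edgeR adjusted p = 0.599) and Cdc20 (-0.45 ± 0.25, edgeR adjusted p = 0.599).

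**Figure D4:**
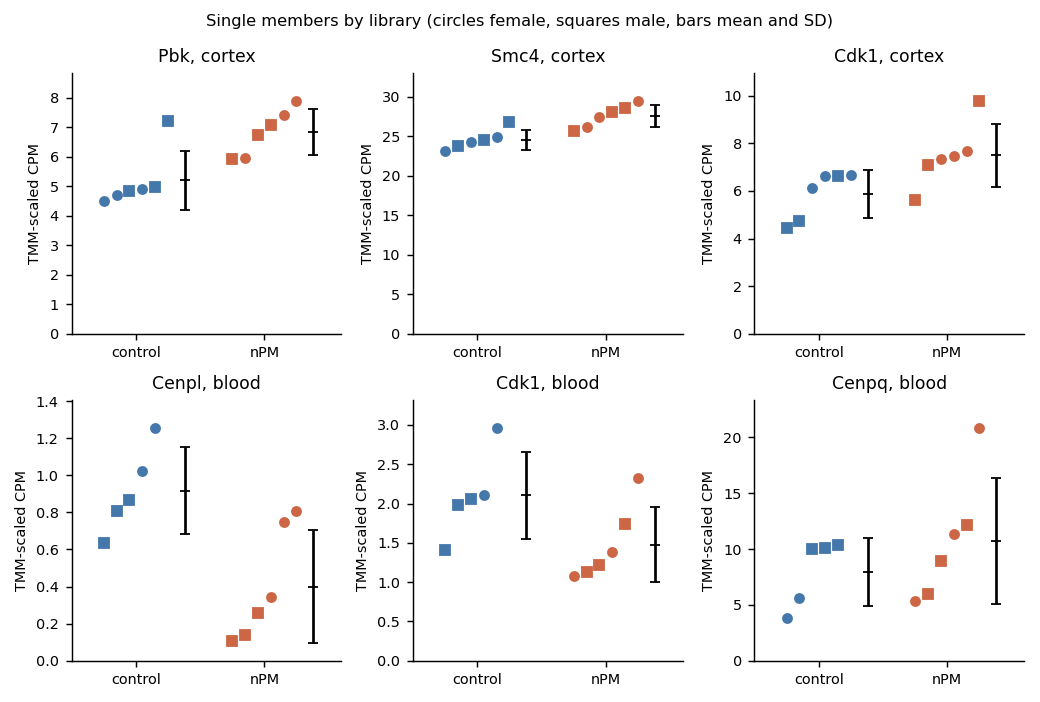
TMM-scaled CPM (y, from 0) of Pbk, Smc4 and Cdk1 in cortex and of Cenpl, Cdk1 and Cenpq in blood, 1 point per library (circles female, squares male) with the mean and SD of each group; blood is shown without V2. Pbk and Smc4 overlap through the single control V16, and in blood the 3 male nPM libraries have the lowest Cenpl values.

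The rest of the cell cycle was read from lists that share no gene with the 45. Of 72 other mitosis genes 57 were higher in nPM cortex, at a median of 0.064, with 5 past an unadjusted p of 0.05 and 0 lower. The smallest p were those of Cdca3 (0.32 ± 0.13, edgeR adjusted p = 0.862), a trigger of mitotic entry, and of the spindle protein Ckap2 (0.30 ± 0.12, edgeR adjusted p = 0.862). Of 59 genes of S phase and DNA replication 42 were higher, at a median of 0.054, and Rrm2, a ribonucleotide reductase subunit, passed (0.25 ± 0.083, edgeR adjusted p = 0.844). Of the 14 CDK inhibitors and quiescence genes tested 10 were higher, including Cdkn1a (p21, 0.19 ± 0.071, edgeR adjusted p = 0.844) and Cdkn1c (p57, 0.25 ± 0.11, edgeR adjusted p = 0.862). Of 9 core genes of the DREAM complex, which binds the cell cycle homology region, 7 were higher (median 0.049), with E2f5 at 0.17 ± 0.073 (edgeR adjusted p = 0.862). Of 14 subunits of the anaphase promoting complex 9 were higher (median 0.023) and 0 passed. No gene of these lists had an adjusted p under 0.05.

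Markers of dividing and other cells were read in the same cortex libraries. All 10 cortical progenitor markers, such as Pax6, Sox2 and Vim, were higher in nPM cortex (median 0.13, 1 past an unadjusted p of 0.05, Fabp7 at 0.21 ± 0.096, edgeR adjusted p = 0.862). Their summed level was 847 to 983 CPM in controls and 930 to 1060 CPM with nPM. Slc1a3, at 405 to 512 CPM, and Fabp7, at 248 to 406 CPM, gave most of this sum, where Pax6 gave 6.04 to 11 CPM. All 5 ventral and subventricular progenitor markers were higher (median 0.16, 0 past the threshold), with a median summed level of 33.05 CPM in controls and 35.65 CPM with nPM. Oligodendrocyte precursor markers were 3 higher and 3 lower (median 0.034), the 6 endothelial ones all higher (median 0.059), and 6 of 8 microglial ones lower (median -0.10), with none past the threshold. The endothelial ones summed to 107 CPM in V14, 150 to 155 CPM in the other controls and 144 to 159 CPM with nPM. By sex, 2 of these 6 were higher in females (median -0.00596) and 6 of 6 in males (median 0.148). Of the cerebellar granule precursor markers 2 of 6 were detected in every library, Zic1 (0.35 ± 0.12, edgeR adjusted p = 0.844) and Zic2, and Atoh1, which defines that cell, had 0 counts in 8 of 12 cortex libraries. Nucleated erythroid markers summed to 414 to 721 CPM in control and 401 to 737 CPM in nPM cortex. Neuron markers were 4 higher and 4 lower (median -0.012). Of markers of blood cells, 2 of 9 erythroid ones were higher (median -0.029), 2 of 2 of granulocyte precursors (0.092), 1 of 4 of neutrophils (-0.18), 1 of 3 of B cells (-0.043), the single one of T and NK cells (0.295), 1 of 5 of stem and progenitor cells (-0.069) and 2 of 3 of platelets (0.16). Not all of these were particular to blood. Kit lay at 56 to 68.4 CPM in cortex and at most 1.08 CPM in blood outside V2. It was higher in control cortex by TMM too (2.95 ± 0.20, SE). Cd34 (28.5 to 37.7 against at most 0.617 CPM) and Hlf (21.9 to 34.8 against at most 0.596 CPM) also had more CPM in cortex. Tfrc alone gave 154 to 216 CPM of the erythroid sum in cortex. Of 5 liver markers 2 were tested and both were higher (0.3), 1 of them Ttr. Within the sexes, 8 of 10 cortical progenitor markers were higher in female nPM cortex (median 0.126), and Fabp7 rose there (0.36 ± 0.068, edgeR adjusted p = 0.0292), while Sox2 (0.16 ± 0.068) and Vim (0.21 ± 0.066) passed the unadjusted threshold alone. Their summed level was 847 to 948 CPM in control and 947 to 1030 CPM in nPM females. In male nPM cortex 9 of these 10 were higher (median 0.144, 0 past the threshold), all 8 microglial markers were lower (median -0.241, with C1qa and C1qc past it) and 7 of 8 neuron markers were lower (median -0.114, with Snap25 past it). Microglial markers summed to 207 to 336 CPM in control and 242 to 288 CPM in nPM males, and neuron markers to 7650 to 8450 and 7670 to 8030 CPM. In female nPM cortex 5 of 8 neuron markers were higher (median 0.0504), with Tubb3 and Gap43 past the unadjusted threshold. Microglial markers were lower there for 6 of 8 (median -0.112), with Tmem119 past it. Zic1 and Ttr also passed as higher and Hlf as lower in females, where 15.4% of all genes passed. The part of any of these cells in the members' change was not tested.

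In blood 36 of 45 members were lower in the 6 nPM libraries than in the 5 controls at a median of -0.14, where the median of all 9977 genes was 0.0025 and 50.4% were higher. At an unadjusted p of 0.05, 2 members were lower, where 1.54% of all genes passed as lower, and 0 were higher, where 1.56% passed as higher. Without V1 29 members were lower and the median was -0.0699. The 2 that passed were Cenpl and Cdk1. The count of 2 became 1 without V5 and 4 without V1 or V22. No member had an adjusted p under 0.05 by edgeR, limma voom or DESeq2, whose counts at an unadjusted p under 0.05 were 2, 3 and 1. The nPM and control libraries overlapped for every member, where 0.221% of all genes did not.

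Cenpl, a subunit of the constitutive centromere network, was the 1 member past an unadjusted p of 0.005, which 0.17% of all genes passed. It measured 0.637, 0.805, 0.864, 1.03 and 1.25 CPM in the 5 controls, and from 0.106 to 0.808 CPM with nPM (median 0.30). These levels rest on 9 to 35 counts per control library and 2 to 16 counts per nPM library, where 3 counts are worth 0.137 to 0.221 CPM. The 3 nPM males had the lowest values, and the ranges overlapped through V1 and V18. The log2 change was -1.43 ± 0.39 (edgeR p = 0.00168, adjusted p = 1), and the exact permutation test gave p = 0.0238. The p stayed between 0.000891 and 0.00534 with each library left out in turn, passing 0.005 in all but the fit without V7. It was 0.00659 with V2 kept. Cenpl in cortex, at 2.94 to 4.06 CPM in controls and 2.71 to 3.73 CPM with nPM, had a log2 change of -0.067 (edgeR adjusted p = 0.953).

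Cdk1 measured 1.41, 1.98, 2.06, 2.11 and 2.96 CPM in control blood and from 1.08 to 2.32 CPM with nPM (median 1.30), where 4 of 6 nPM libraries lay below every control. Its change was -0.53 ± 0.25 (edgeR adjusted p = 1). Without V17, the highest control, the change was -0.261 and did not pass. Mitotic kinases had the lowest class median in blood, -0.34, with 8 of 9 lower, among them Bub1 (-0.68 ± 0.34, edgeR adjusted p = 1), Plk1 (-0.87 ± 0.47, edgeR adjusted p = 1) and Aurka (-0.56 ± 0.30, edgeR adjusted p = 1). Ccnb1, at 1.10, 1.59, 2.37, 2.65 and 3.33 CPM in controls and 1.23 to 2.07 CPM with nPM (median 1.45), was at -0.49 ± 0.27 (edgeR adjusted p = 1). Without V1 Bub1 was at -0.176 and Ccnb1 at -0.114. Plk1 rests on 4 to 17 counts per control library and 1 to 10 per nPM library, and Aurka on 9 to 38 and 12 to 21. Over the 11 libraries Pbk and Nek2 of the same class rest on 1 to 16 and 4 to 26 counts. All 6 kinesins were lower, at a median of -0.215.

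None of the 4 most abundant blood members passed. Bub1b was at -0.14 ± 0.18. Ube2c, at 140 to 211 CPM in controls and 143 to 220 CPM with nPM, was at -0.10 ± 0.19 (edgeR adjusted p = 1). Nusap1, at 162 to 313 CPM in controls and 177 to 334 CPM with nPM, was at -0.0072 ± 0.21 (edgeR adjusted p = 1). Mki67 lay at 94.4 to 147 CPM in controls and 88.5 to 199 CPM with nPM (0.17 ± 0.21, edgeR adjusted p = 1), and Top2a at 29.3 to 42.9 CPM and 25.6 to 42.4 CPM (-0.014 ± 0.19, edgeR adjusted p = 1). Members above 0 in nPM blood were 9, led by Cenpq (0.52 ± 0.34), Smc2 (0.40 ± 0.22) and Ccna2 (0.32 ± 0.26), which did not pass the threshold. Within lane 1, with 4 nPM and 3 control libraries, 35 members were lower (median -0.11), and within lane 3, with 2 and 2, 36 were (median -0.16).

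Of the 64 other mitosis genes tested in blood 43 were lower with nPM (median -0.14), with 3 past an unadjusted p of 0.05, led by the kinetochore gene Cenpi (-0.85 ± 0.28, edgeR adjusted p = 1) and the checkpoint gene Bub3 (-0.63 ± 0.25, edgeR adjusted p = 1). S phase genes were lower in 38 of 56 (median -0.15), with Rfc3 (-1.17 ± 0.41, edgeR adjusted p = 1) and E2f7 past the threshold. All 6 B cell markers tested were lower (median -0.32, 1 past the threshold), with a summed level of 18.9 to 50.5 CPM in controls and 8.42 to 38.2 CPM with nPM, and 4 of 5 T and NK cell markers (median -0.28) at 4.80 to 16.5 and 3.45 to 8.90 CPM. Nucleated erythroid markers were 6 higher and 4 lower (median 0.055), granulocyte precursor markers 5 higher and 2 lower (median 0.090), and the 5 platelet markers all higher (median 0.26), a pooled value that the sexes did not share. Of the CDK inhibitors and quiescence genes 8 of 11 were higher (median 0.080), of the DREAM core 7 of 9 lower (-0.080) and of the anaphase promoting complex subunits 9 of 14 lower (-0.053). Neutrophil markers were 2 higher and 3 lower (-0.074), the 4 stem and progenitor markers all higher (0.085), the 4 endothelial ones all higher (0.24), 4 of 7 microglial ones higher (0.019), 1 of 2 neuron ones higher (0.29) and 1 of 3 cortical progenitor ones higher (-0.078). No ventral progenitor, oligodendrocyte precursor, cerebellar or liver marker had a count in every blood library. Vpreb1, a precursor B cell marker, had 0 counts in 2 of the 11 libraries. Neuron markers reached 38 CPM in V5, an nPM male. What these cells contributed to the members' change was not tested.

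By sex, 13 members were higher in female nPM blood (3 against 2 libraries, median -0.089) and 20 in male nPM blood (median -0.042). At an unadjusted p of 0.05, 2 passed in females, where 8.11% of all genes did, and 1 in males, where 3.86% did, so neither count stood above what the share of all genes gives for 45 genes. The female median was -0.207 without V17, -0.181 without V3 and -0.0512 without V1. The male median was 0.0368 without V22, -0.0825 without V21, -0.0178 without V8 and -0.0108 without V5. The female count was 1 without V1 and 4 without V18. The male count was 2 without V7. In females Cenpq, another subunit of the centromere network, measured 3.83 and 5.58 CPM in controls and 5.39, 11.3 and 20.8 CPM with nPM (1.49 ± 0.45, edgeR adjusted p = 0.573). Its adjusted p was 0.0189 with genes kept on a count in any library. Without V3, which holds the highest value, its change was 0.53 (edgeR adjusted p = 0.907). In males Cenpl measured 0.637, 0.805 and 0.864 CPM in controls and 0.106, 0.140 and 0.255 CPM with nPM, with no overlap (-2.51 ± 0.67, edgeR adjusted p = 1). The nPM values rest on 2, 3 and 5 counts, and 3 against 3 cannot give an exact permutation p below 0.1. Of the 45 members 5 had no overlap in male blood and 10 in female blood, with its 3 nPM and 2 control libraries. The share over all genes was not counted, so neither count is read as a result about the members.

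The exposure effect in blood differed between the sexes at an unadjusted p of 0.05 for 2 members, where 10.7% of all genes passed. These were Cenpq (-1.64 ± 0.57, males minus females, edgeR adjusted p = 0.452) and Ccna2 (-1.12 ± 0.46, edgeR adjusted p = 0.452). The count was 0 without V3 or V4, 1 without V5 or V8 and 4 without V17.

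Markers of blood cells were read in the same sex-stratified fits. In female nPM blood all 5 platelet markers were higher (median 0.827), and Ppbp, Gp1bb, Itga2b and Pf4 passed the unadjusted threshold. In male nPM blood all 5 were lower (median -0.254, 0 past it), and the sex difference passed for all 5 (median -1.1, edgeR adjusted p from 0.452 to 0.454). Platelet markers summed to 143 to 159 CPM in control and 169 to 400 CPM in nPM females, and to 161 to 259 and 189 to 267 CPM in males.

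Nucleated erythroid markers were higher for 9 of 10 in females (median 0.532, with Tfrc and Gata1 past the threshold) and for 4 of 10 in males (median -0.0322), and the sex difference was negative for 10 of 10 (median -0.896). All 7 B cell markers were lower in females (median -0.865), with Rag1, the recombinase of precursor lymphocytes, at -2.52 ± 0.39 (edgeR adjusted p = 0.0203). Rag1 measured 15.1 CPM in V4 and 1.58 CPM in V17, the female controls, and 4.53, 0.689 and 0.653 CPM with nPM. Its groups overlapped, and V4 alone stood high. Cd79a and Ms4a1 passed the unadjusted threshold. All 6 B cell markers tested in males were lower too (median -0.392, 0 past the threshold). T and NK cell markers were lower for 5 of 5 in females (median -1.06, with Cd3g, Cd4 and Klrb1c past it) and 4 of 5 in males (median -0.503). V4 was also the higher female control for Cd3g (5.89 CPM against 2.03 CPM in V17) and Cd4 (4.75 against 0.643 CPM). For Klrb1c it was V17 (0.594 against 0.365 CPM). Granulocyte precursor markers were higher for 7 of 7 in males (median 0.609, with Camp past the threshold), at 15.7 to 38.5 CPM summed in controls and 36.2 to 42.5 CPM with nPM, and for 4 of 8 in females (median -0.0719). Neutrophil markers were higher for 5 of 5 in males (median 0.336, with S100a8 past it) and 1 of 5 in females (median -0.517). Their sex difference was positive for 5 of 5 (median 0.878). The part of any of these cells in the members' values was not tested.

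V2 had higher levels of most members than any other blood library. Of the 45, 42 were above all 11 others, by a median ratio to their median of 8.18. Pbk measured 16.6 CPM in V2 (95% Poisson interval 14.9 to 18.4, counting error only) and 0.0467 to 0.731 CPM in the others. Ccnb1 measured 36.7 CPM against 1.03 to 3.38 CPM, and Cenpe 48.6 CPM against 3.09 to 7.17 CPM. Ube2c (107 CPM against 132 to 213) and Nusap1 (146 CPM against 167 to 333), the members most abundant in the other libraries, were below all of them, and Cenpq (12.3 CPM) lay inside their range.

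High values in V2 were not limited to the members. Among the 9977 genes tested in blood, 83.3% were above all other libraries in V2, by a median ratio of 9.23. V2 also carried transcripts of skin, chosen after its values were seen: the keratins Krt1 at 3860 CPM and Krt10 at 3160 CPM and the collagen Col3a1 at 2000 CPM, against at most 3.62, 3.35 and 12.6 CPM in the other blood libraries. Globins took 50.1% of its counts. Which cells gave the members' RNA in V2 was not tested.

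**Figure D5:**
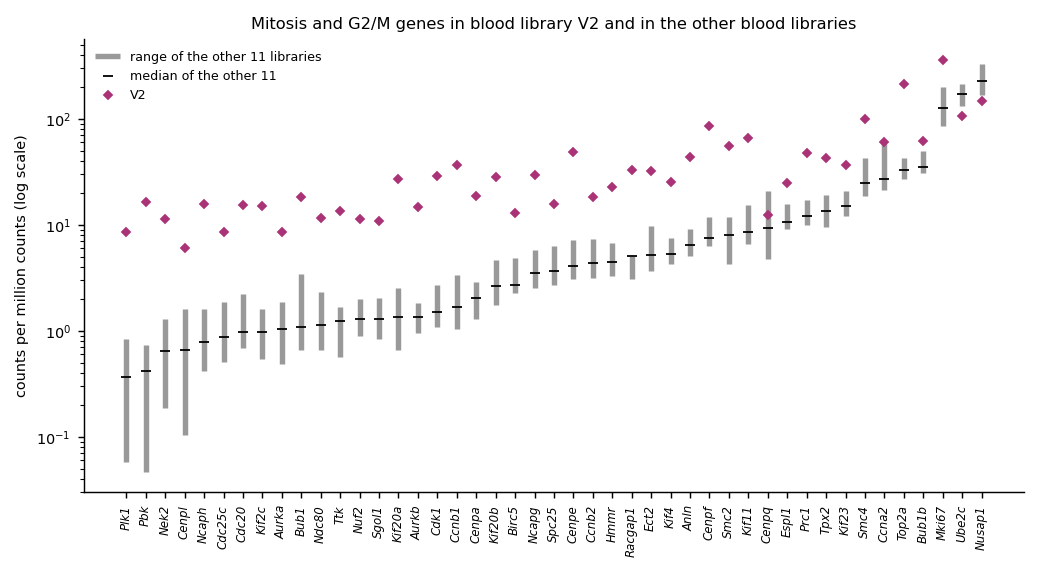
CPM (y, log scale) of each member in V2 (diamonds) and in the other 11 blood libraries (grey bars from lowest to highest, black ticks for the median), ordered by that median. The diamond lies above the bar for 42 members and below it for Ube2c and Nusap1.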

How the data were processed

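Whole RNA of each library was sequenced after ribosomal depletion. Per the methods and processing notes, HISAT2 placed the reads on mm10 and featureCounts 1.5.0-p3 assigned them to Gencode M11 genes, and the deposited values are the authors' raw counts; strand use in the counting is not given in the sources used here. The authors' mean RPKM column of the gene map was not used. RPKM, CPM and TMM-scaled CPM were computed here from the counts and gene lengths.

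The test was edgeR's (4.0.16, R 4.3.3) quasi-likelihood test with TMM factors, with RIN as a covariate in the exposure fits, sex as well where sexes were pooled, and sex alone between tissues, on genes that no library of the comparison lacked (minimum count 1), and Benjamini-Hochberg adjustment over all genes tested. Values carry a prior count of 0.5 where on a log scale. Unadjusted thresholds were 0.05 and 0.005. Sexes were also fitted apart and their difference tested as an interaction. V2 was left out of blood fits. Pups of the same sex and exposure came from different litters per the methods, though no label gives a litter. Whether a male and a female of an exposure were littermates is not stated. The p-values measure the spread between these libraries. Alternatives were limma voom (3.58.1), DESeq2 (1.42.0), other normalizations, filters and covariates, V2 kept, and each library left out; library totals in place of TMM were added after seeing the data. Scripts were tested on simulated data. Counting intervals (95%) and the floor of 3 counts cover counting error only.

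The members and the 20 gene lists used were chosen with earlier results of these data known. Named by rule were Mki67, Top2a, Cdk1 and Ccnb1, the most abundant member of each class by RPKM in control cortex and in control blood, the 3 members with the smallest p in each exposure and interaction fit, every member past an unadjusted p of 0.005 in an exposure fit, the 3 with the largest and the 3 with the smallest ratio of cortex to blood, and at most 2 genes of each other list by p. Values of the remaining members were added to complete the classes, after they were seen.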

Additional observations from a re-analysis of the deposited data

Results flagged for a closer look

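In 184 groups of values (45 members and their mean level, each in 4 groups of libraries), 16 had 1 library far from the rest of its group, where chance gives about 1 in 20. Values are TMM-scaled CPM. In control blood, V6 was highest for Anln (8.71 against 6.44 to 7.09 in the others), Birc5 (6.44 against 2.67 to 3.18) and Racgap1 (6.72 against 3.85 to 4.61), and V22 was lowest for Ttk (0.984 against 1.33 to 1.42). In nPM blood, V1 was highest for Cdc20 (2.17), Cdc25c (1.82), Kif23 (17.4), Ncaph (1.56) and Spc25 (4.75). V3 was highest for Bub1 (2.22) and Ccna2 (59.2), and V21 for Nuf2 (1.79). In cortex, the controls V19 and V16 were highest for Anln (11.1) and Pbk (7.20), and the nPM library V11 for Kif11 (16.7) and Prc1 (13.4).

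By edgeR's interaction test, the exposure effect in blood differed between the sexes at an unadjusted p of 0.05 for 2 members, where 10.7% of all genes passed. These were Cenpq (-1.64, males minus females) and Ccna2 (-1.12), and neither had an adjusted p under 0.05. The count was 0 without V3 or V4. In V2, which the blood tests left out except in the alternatives that kept it, 42 of the 45 members lay above all 11 other blood libraries.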

How the results depend on the processing

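No paired analysis was possible because the labels carry no replicate numbers that groups share. No alternative turned the median change of the members in cortex or blood with the sexes pooled. Where a value moved, the cause was not tested. The count of members at an unadjusted p under 0.05 was 1 in blood with DESeq2 or RLE factors, 3 in female cortex with DESeq2, 1 in male cortex with voom or without RIN and 8 with a count in any library, 1 in female blood with V2 kept, 2 in male blood with voom or without RIN, 2 for the sex difference in cortex with a count in any library, and for that in blood 4 with DESeq2 and 1 without RIN. Without RIN the median change was -0.274 in male blood and -0.255 for the sex difference in blood. The median of cortex against blood was -3.73 with DESeq2 or RLE factors, -3.78 with edgeR's own filter and 0.987 with library totals, where 7 members were called lower.

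With each library left out the counts ran from 5 to 19 in cortex, 1 to 4 in blood, 2 to 6 in female cortex, 0 to 17 in male cortex, 1 to 4 in female blood, 1 to 2 in male blood, 0 to 3 for the sex difference in cortex and 0 to 4 for that in blood. The median ran from -0.18 to -0.0699 in blood, from -0.207 to -0.0512 in female and -0.0825 to 0.0368 in male blood, from -0.217 to 0.107 for the sex difference in blood, from 0.108 to 0.471 in male cortex and from -0.0265 to 0.185 for the sex difference in cortex. Changes near 0 turned sign: in blood Kif11 ran from -0.159 to 0.184, Nusap1 from -0.196 to 0.0577, Pbk from -0.205 to 0.477, Racgap1 from -0.132 to 0.0379, Top2a from -0.082 to 0.133 and Tpx2 from -0.196 to 0.0812, and in cortex Kif23 from -0.0358 to 0.241 and Ube2c from -0.00733 to 0.103. Nusap1 in blood was at 0.013 with voom, 0.00559 with DESeq2, 0.00545 with RLE factors, 5.55e-05 with a count in any library, 0.0142 without RIN and 0.00181 with lane. Top2a in blood was at 0.00211 with DESeq2 and 0.00191 with RLE factors. With V2 kept, Nusap1 was at 0.298, Top2a at 0.0567, Pbk at -0.5, Bub1b at 0.0956, Ube2c at 0.177, Tpx2 at 0.0566 and Smc4 at 0.0628 in blood. Pbk in female cortex had an adjusted p between 0.00686 and 0.0788 over its alternatives by edgeR, limma voom and DESeq2. At 2 to 35 counts per library, depth limits Cenpl in blood, and at 1 to 17 counts it limits Plk1.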
